A study of Homo sapiens with 16 samples.

Results

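SK-OV-3 cells carrying shPRMT1 #5 were compared with the cells carrying shPRMT1 #1 and #3, to show what was particular to 1 of the 3 hairpins used against the same gene. The 4 libraries of shPRMT1 #5, of 16 in all, were set against the 8 libraries of shPRMT1 #1 and #3, with treatment and replicate number as terms. The shScramble libraries stayed outside the contrast and are given beside it as levels, with no test. SK-OV-3 is an established human ovarian carcinoma line. Each population was untreated or exposed to 20 µM cisplatin, a drug that crosslinks DNA, for 24 h, and the labels give 2 biological replicates of each group. How the replicate cultures were separated is not stated, so p-values measure the spread between these samples. Each hairpin is represented by 1 cell population, so an effect of the hairpin and a property of the population that carries it cannot be told apart.

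PRMT1 is the enzyme that places most of the asymmetric dimethylarginine found on proteins. A short hairpin RNA is cut by Dicer into a guide strand, which an Argonaute protein carries to the target transcript. Such a guide can also lower other transcripts that pair with its first bases, the seed, mostly in the 3′ untranslated region (3′ UTR), and hairpin RNA can be sensed by the proteins that switch on interferon-stimulated genes. No source used here gives the hairpin sequences, so pairing of any hairpin with any transcript was not tested.

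The 12 knockdown libraries held 12289300 to 16039735 reads, and those of shPRMT1 #5 held 12289300 to 13765377. In each of the 12, 28089 to 29236 genes had at least 1 read. RPKM is the number of reads scaled by the length of the gene model and the library total. No gene exceeded 1.84 reads per base of gene model in any library, so the most abundant genes are compressed in this table. Summed markers of an ERBB2-amplified epithelial line ranged from 172 to 236 RPKM in shPRMT1 #5 and from 154 to 226 RPKM in shPRMT1 #1 and #3. ERBB2 averaged 55.7 and 54.1 RPKM in them, PAX8 averaged 23.5 and 23.4, and MUC16, the CA-125 antigen, was near 0 at 0.0181 and 0.0195. Of the markers of other cells, 9 of fibroblasts summed to 37.9 to 81.5 RPKM in shPRMT1 #5 and 22.4 to 70.5 in the others. The 9 leukocyte markers summed to 1.48 to 6.27 and 0.755 to 3.75 RPKM, and the 5 endothelial markers to 0.337 to 0.928 and 0.42 to 1.72 RPKM. None of these markers was at 0 in all 12 libraries, and the ranges overlap. Of the fibroblast markers 5 could be tested and 3 were called higher in shPRMT1 #5 (median 0.41, log2), 2 of them, COL3A1 and LUM, against each other hairpin. Over both treatments 0 were called lower, and untreated 1 was called higher and 1 lower. POSTN averaged 1.12 RPKM in shPRMT1 #5 against 1.56, and PDGFRA 0.0593 against 0.054. Of the leukocyte markers 2 could be tested and both were called higher, CD79A at a mean of 1.53 against 0.989 RPKM and CD14 at 1.27 against 0.73. The others were too low to test. Among them PTPRC averaged 0.0678 and 0.051 RPKM, LYZ 0.386 and 0.244, CD68 0.0712 and 0.0736, and ITGAM 0.0227 and 0.0319. The part of such cells in the results was not tested. In such bulk samples fewer cells of a type and less RNA per cell cannot be told apart.

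Among the knockdowns PRMT1 was highest in shPRMT1 #5. The gene, ENSG00000126457.16 in the table, lies on the plus strand of chromosome 19 at 50179042 to 50192286 (GRCh37). It measured 8.40 and 8.48 RPKM untreated and 6.14 and 10.4 under cisplatin with shPRMT1 #5. With shPRMT1 #1 the values were 4.60 and 7.76, then 4.12 and 6.47, and with shPRMT1 #3 they were 4.58 and 5.81, then 4.13 and 4.14. The groups overlapped under cisplatin, where the lower shPRMT1 #5 library lay below the higher shPRMT1 #1 library, and did not overlap without the drug. The difference on the log2(RPKM + 1) scale was 0.60 (SE 0.105, limma, Benjamini-Hochberg adjusted p = 0.00158). In shScramble cells PRMT1 stood at 19.4 and 23.5 RPKM untreated and 17.8 and 20.5 under cisplatin, above every knockdown library. The population had been described as the weakest knockdown from these same values, so they carry no further support for it.

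Across the 17773 genes tested, 3342 (18.8%) were higher and 2591 (14.6%) lower in shPRMT1 #5 than the mean of shPRMT1 #1 and #3, at an adjusted p under 0.05. The 17773 include 407 genes that passed the filter on low values only through shPRMT1 #5 and 1322 only through shPRMT1 #1 and #3. Requiring a call against each of the other hairpins in the same direction left 1262 genes higher (7.10%) and 1422 lower (8.00%). Those 2684 genes are called beyond both below. In 812 of the higher and 1034 of the lower genes, the libraries of shPRMT1 #5 did not overlap those of the others within either treatment. These genes were already called on the same libraries, so the lack of overlap follows in part from the calls and adds no support. Most differences were small: 23 higher and 80 lower genes beyond both reached a 2-fold change on this scale. The other hairpins stood apart too, with 2317 genes higher (13.0%) and 2676 lower (15.1%) in shPRMT1 #1 than the mean of the other two, and 2111 higher (11.9%) and 2024 lower (11.4%) in shPRMT1 #3. These comparisons share their libraries.

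The balance of directions depended on scaling, and the counts on single libraries. Genes called against the mean were 56.3% higher, against 45.9% after rescaling by size factors, and those beyond both were 47.0% higher, against 33.9%. The median of all tested genes was 0.05 (log2), and 0.02 after rescaling. Without the replicate block 1853 genes were higher than the mean, and beyond both 556 were higher and 887 lower. The 1262 genes higher beyond both fell to 725 without untreated replicate 1 of shPRMT1 #5 and to 823 without untreated replicate 1 of shPRMT1 #3. Of 1089 genes with over 0.5 reads per base, near the compressed top, 34.1% were called higher, against 15% of 12249 genes under 0.2 reads per base, and 13.3% and 12.8% were called lower.

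**Figure D1:**
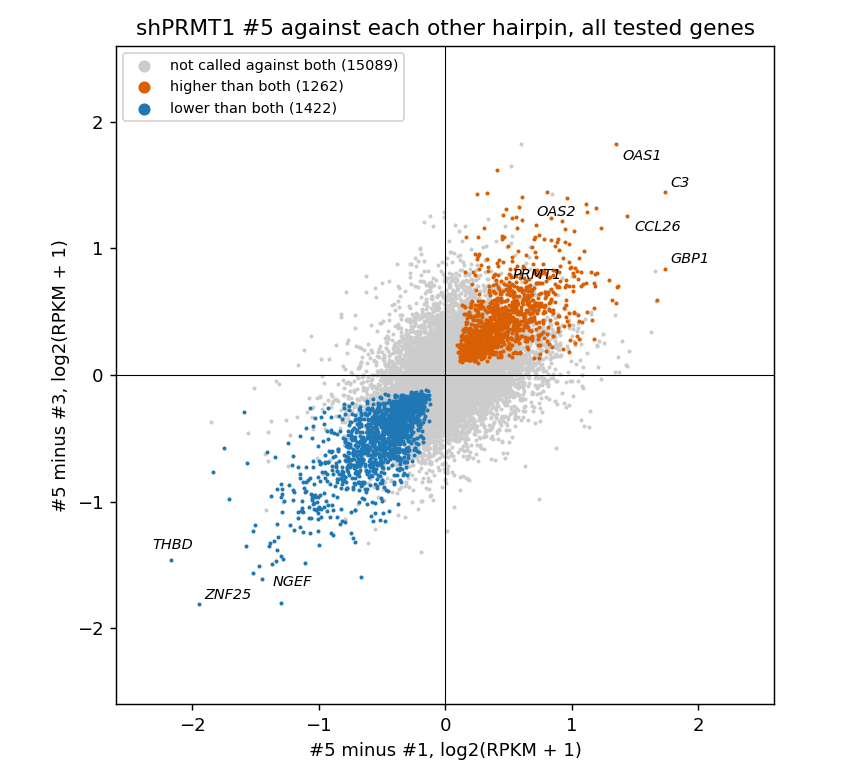
Difference of shPRMT1 #5 from shPRMT1 #1 (horizontal) and from shPRMT1 #3 (vertical) for each tested gene, on the log2(RPKM + 1) scale, 4 libraries a hairpin. The 1262 genes called higher and 1422 called lower than both are coloured and the other 15089 are grey; THBD, ZNF25 and NGEF lie far to the lower left and C3, OAS1 and CCL26 far to the upper right. Both axes use the same shPRMT1 #5 libraries.

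A run of 7 bases was more frequent in the 3′ UTRs of the lower genes than of all tested genes, though most lower genes lacked it. All runs of 7 bases were counted in the 3′ UTRs of 12207 tested genes, using 1 GENCODE 29 transcript a gene (GRCh38), and the 11440 runs found in 500 or more genes were ranked. The rank was set by the mean difference between genes with and without the run in replicate 1 alone. This search was made after the differences were known. The lowest run in replicate 1 was GGAATGA, held by 1546 genes (12.7%), and it was also lowest in replicate 2, with means of -0.214 and -0.201 (log2). The median of all ranked runs was -0.069, and the next lowest, AGGAATG at -0.184, overlaps it. The same search in shPRMT1 #1 gave GGCCGGC, which ranked 9740 in replicate 2, and in shPRMT1 #3 it gave ATCTCTG, which ranked 235.

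Sites in the lower genes with the largest differences are shown with 11 bases on each side, to show that the 7 bases in capitals recur in unlike surroundings. They are read 5′ to 3′ on the gene's strand from the 3′ UTR, with GRCh38 positions. THBD has 2 sites and RMI2 has 2, of which the first is given.
THBD (chr20:23046177-23046205, minus strand): cagctaagctaGGAATGAaatcctgcttc
EDIL3 (chr5:83943348-83943376, minus strand): agtatctccatGGAATGAactgtgcaaaa
NGEF (chr2:232878781-232878809, minus strand): aggtgttttaaGGAATGAattggtcactg
INIP (chr9:112684068-112684096, minus strand): aatatgttgaaGGAATGAaagaatttata
RMI2 (chr16:11351228-11351256, plus strand): tgtgtaaaaaaGGAATGAcatcctggctc
STYX (chr14:52772583-52772611, plus strand): ctttactaatgGGAATGAtttctgtatgt

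PRMT1 carries the run as well, in a coding exon of 6 of its 21 annotated transcripts. Its site is shown because PRMT1 is the gene the hairpin was made against. Of the ranked runs, 775 (6.77%) occur somewhere in the PRMT1 transcript used, which is 1192 bases long. Whether this match has a part in the differences was not tested. ATCTCTG, the lowest run of shPRMT1 #3, is in 14 of the 21 PRMT1 transcripts, and GGCCGGC of shPRMT1 #1 is in 0.
PRMT1 (chr19:49686152-49686180, plus strand): gcaagtgaagcGGAATGActacgtgcacg

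Levels in shPRMT1 #5 were lower in genes with more sites. The median difference of shPRMT1 #5 from the mean of the others was 0.07 (log2) in 10661 genes with no site, -0.10 in 1301 genes with 1 site, -0.18 in 200 with 2 and -0.28 in 45 with 3 or more. The same groups of genes lay at -0.02, 0.00, -0.01 and -0.03 between shPRMT1 #1 and #3, a comparison with no shPRMT1 #5 library. The order was alike untreated, with medians of 0.07, -0.11, -0.19 and -0.31, and under cisplatin, with medians of 0.05, -0.08, -0.14 and -0.24. Against shScramble the medians were 0.05, -0.12, -0.22 and -0.39 for shPRMT1 #5. They were -0.01, -0.01, -0.04 and -0.08 for shPRMT1 #1, and 0.01, 0.00, 0.02 and -0.05 for shPRMT1 #3; these 3 comparisons share the shScramble libraries. Genes with more sites also had longer 3′ UTRs, with median lengths of 1188, 2866, 4928 and 7989 bases from no site to 3 or more. Length and number of sites were not separated. In the same order 7.8%, 26.1%, 35.5% and 33.3% of the genes were called lower beyond both. Genes whose only sites lay outside the 3′ UTR had a median of -0.07 (1364 genes).

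Of the 1260 genes lower beyond both that have a 3′ UTR in the annotation, 426 (33.8%) held a site, against 64 of 998 genes (6.4%) higher beyond both and 12.7% of all. Among genes lower by 2-fold or more beyond both, 35 of 64 (54.7%) did. A site is likelier in a long 3′ UTR, and the median length was 3120 bases with a site and 1188 without. In 3 equal classes of 3′ UTR length, the median with and without a site was -0.06 and 0.10 up to 795 bases, -0.12 and 0.06 from 796 to 2156 bases, and -0.11 and 0.01 above that. Genes with a site thus lay lower in each class, and 834 of the 1260 lower genes held no site. Since the run was chosen for its low mean in shPRMT1 #5, these values describe it and were not tested.

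**Figure D2:**
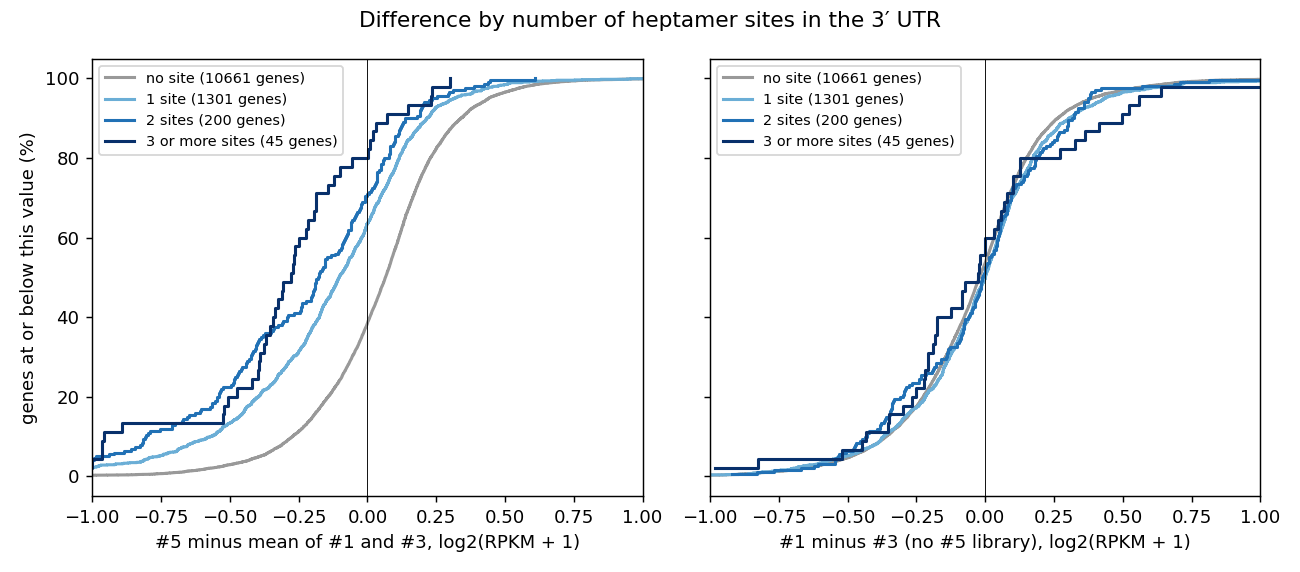
Cumulative share of genes (vertical) by log2 difference (horizontal), drawn by the number of GGAATGA sites in the 3′ UTR, for shPRMT1 #5 minus the mean of shPRMT1 #1 and #3 (left) and for shPRMT1 #1 minus #3 (right). On the left the curves shift towards lower values with more sites, from a median of 0.07 to -0.28; on the right they lie together.

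The 12 named lower genes had varied roles. THBD (GRCh37 chromosome 20), which encodes thrombomodulin, the endothelial and epithelial receptor that turns thrombin towards protein C, measured 3.88 and 5.11 RPKM untreated and 4.44 and 4.76 under cisplatin with shPRMT1 #5. The values were 24.2 and 31.4, then 18.5 and 22.9 with shPRMT1 #1, and 13.9 and 15.9, then 13.0 and 14.2 with shPRMT1 #3. Every shPRMT1 #5 library thus lay below every other, at a log2 difference of -1.81 (SE 0.0777, limma, adjusted p = 6.47e-07). EDIL3, a secreted integrin-binding protein, was lower under cisplatin in all populations and lowest in shPRMT1 #5, at 7.29 and 5.94 RPKM untreated and 1.16 and 1.12 under the drug. The other 8 libraries held 17.6 to 23.0 RPKM untreated and 3.67 to 6.50 under cisplatin (log2 difference -1.54, SE 0.108, adjusted p = 5.37e-06). NGEF, a guanine nucleotide exchange factor of small GTPases, stood at 7.02, 8.70, 5.47 and 7.52 RPKM in shPRMT1 #5 and at 15.8 to 26.4 in the others, without overlap (log2 difference -1.53, SE 0.0672, adjusted p = 6.82e-07).

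RMI2, a subunit of the complex of BLM helicase with topoisomerase IIIα, was at 1.90 and 1.40 RPKM untreated and 4.64 and 3.46 under cisplatin in shPRMT1 #5. With shPRMT1 #1 it was at 6.78 and 6.05, then 10.9 and 9.78, and with shPRMT1 #3 at 7.36 and 6.30, then 12.6 and 11.5. It was higher under cisplatin in all 3 populations but lay lowest in shPRMT1 #5 within each treatment (log2 difference -1.40, SE 0.0678, adjusted p = 8.54e-07). INIP, a subunit of the SOSS complex that binds single-stranded DNA, was at 7.92, 6.29, 9.79 and 8.13 RPKM against 21.3 to 27.1 in the others (-1.49). The zinc-finger gene ZNF25 had the largest decrease of all 17773 genes. It was at 3.13, 2.74, 2.88 and 2.65 RPKM in shPRMT1 #5 and at 9.45 to 17.4 in the other knockdowns (-1.88, SE 0.0909, adjusted p = 8.54e-07).

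The remaining named genes fell by 1.35 to 1.46 on the log2 scale. Among them were AGPAT9 and MBOAT1, acyltransferases of glycerolipid synthesis (-1.46 and -1.37), STYX, a catalytically inactive phosphatase (-1.37), the endonuclease-domain gene ENDOD1 (-1.36), and PIGK, the transamidase subunit that attaches GPI anchors (-1.35). For all 12 genes, every shPRMT1 #5 library was also below every shScramble library of the same treatment. A GGAATGA site was present in 7 of the 12 and in 1 of the 10 named higher genes with a 3′ UTR in the annotation, RAB38. ZNF25, AGPAT9, MBOAT1, ENDOD1 and PIGK had none. The share over all tested genes with a 3′ UTR was 12.7%. Since the run was chosen for its low mean in shPRMT1 #5, these counts add no support.

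Among the 12 named higher genes were antiviral, complement and chemokine genes. C3 (GRCh37 chromosome 19), the central complement component, measured 14.4 and 14.7 RPKM untreated and 1.91 and 2.42 under cisplatin in shPRMT1 #5. With shPRMT1 #1 it was at 2.12 and 2.13, then 0.255 and 0.58, and with shPRMT1 #3 at 3.35 and 3.19, then 0.47 and 0.633. It was lower under the drug in each population and highest in shPRMT1 #5 within each treatment (log2 difference 1.59, SE 0.174, limma, adjusted p = 8.99e-05). In shScramble cells C3 stood at 2.31 and 1.995, then 0.54 and 0.612 RPKM. CCL26, a chemokine that attracts eosinophils, moved the other way with the drug and was at 10.04, 8.13, 22.5 and 18.7 RPKM in shPRMT1 #5. It was at 1.68 to 2.24 untreated and 8.29 to 11.96 under cisplatin in the other knockdowns (log2 difference 1.35, SE 0.143, adjusted p = 7.44e-05).

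OAS1, which makes the 2′,5′-linked oligoadenylates that activate RNase L when double-stranded RNA is present, was at 12.04 and 9.25 RPKM untreated and 3.77 and 6.67 under cisplatin in shPRMT1 #5. With shPRMT1 #1 it was at 4.13 and 3.17, then 1.53 and 1.16, and with shPRMT1 #3 at 1.48 and 1.31, then 1.07 and 1.605. The shPRMT1 #5 libraries were highest within each treatment, and the log2 difference was 1.59 (SE 0.194, adjusted p = 0.000174). Replicates of this gene varied more in shScramble cells, at 5.33 and 1.598, then 1.31 and 3.28 RPKM. OAS2 was at 9.49, 7.61, 4.51 and 6.75 RPKM in shPRMT1 #5 and at 1.71 to 3.83 in the other knockdowns, without overlap (1.20, SE 0.171, adjusted p = 0.000441). In shScramble cells it was at 7.57 and 1.75, then 1.71 and 4.08. GBP1, a guanylate-binding protein that attacks intracellular pathogens, was at 9.33, 7.97, 8.44 and 8.67 RPKM in shPRMT1 #5 and at 1.58 to 5.02 in the others (1.29, SE 0.0736, adjusted p = 2.03e-06).

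The other named higher genes were PROL1, a secreted peptide precursor (1.18), the histone HIST1H2AG (1.13), the small GTPase RAB38 (1.01), the BH3-only cell death gene BMF (1.00), the antiviral gene TRIM22 (0.99), C21orf119 (1.04) and the noncoding RP11-706J10.1 (1.00), all log2 differences. For 8 of the 12 genes every shPRMT1 #5 library was above every shScramble library of the same treatment. The exceptions were C21orf119, RAB38, RP11-706J10.1 and TRIM22. TRIM22, for example, measured 11.7 and 8.54 RPKM untreated in shPRMT1 #5 and 8.59 and 5.83 in shScramble cells, which overlap. All 24 named genes kept their call in 474 of 474 repeats over 20 other settings. They were chosen as the largest called differences without overlap, and the repeats used the same libraries, so this was largely fixed by the choice.

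**Figure D3:**
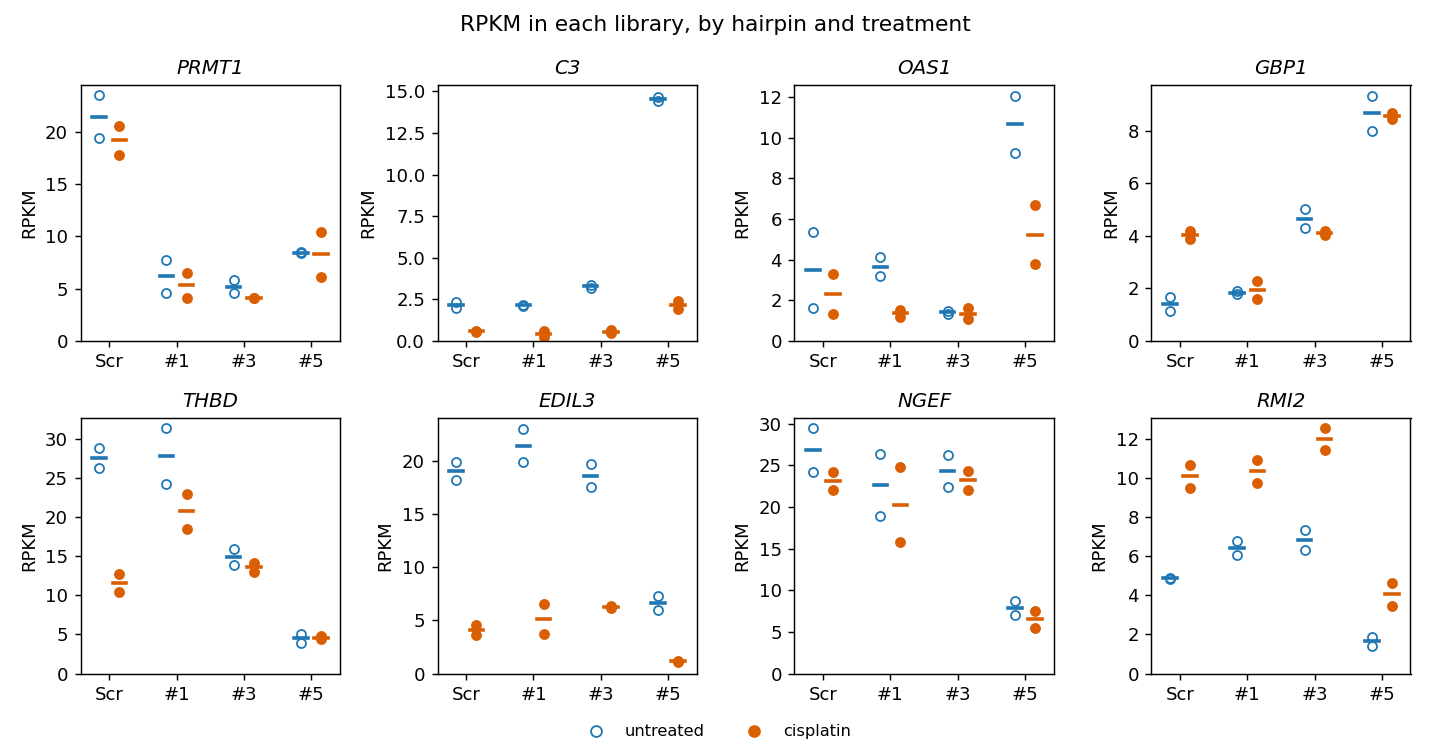
RPKM (vertical, linear) in each library for PRMT1, C3, OAS1, GBP1, THBD, EDIL3, NGEF and RMI2; each point is 1 library and each bar the mean of 2, grouped by population and treatment, with shScramble shown for its level only. THBD at 3.88 to 5.11 RPKM and NGEF at 5.47 to 8.70 are lowest in shPRMT1 #5, and GBP1 at 7.97 to 9.33 is highest there.

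Interferon-stimulated genes were mostly higher. Of 29 tested, 21 were called higher and 2 lower against the mean, and 15 higher and 2 lower beyond both. Over all genes 18.8% were higher and 14.6% lower, and 7.10% and 8.00% beyond both. Of the 29 members, 1 passed the filter on low values only through the shPRMT1 #5 libraries. The median difference of the list was 0.43 (log2), beside 0.05 over all genes. Across the alternatives 18 to 23 were higher, with a median of 0.39 to 0.54. OAS3 averaged 29.2 RPKM in shPRMT1 #5 and 15.03 in shPRMT1 #1 and #3 (0.92), and MX1, which blocks viral replication, averaged 4.65 and 1.88 (0.94). IFITM1, a membrane barrier to virus entry, was at 16.6 to 19.3 RPKM in shPRMT1 #5 and at 8.20 to 14.99 in the others (0.75). The sensor IFIH1 (0.69), the kinase EIF2AK2 (0.36), IFI6 (0.53), BST2 (0.47) and IFI27 (0.41) were also called higher beyond both. ISG15, a ubiquitin-like modifier, averaged 26.0 and 15.7 RPKM and was not called (0.77, SE 0.298, adjusted p = 0.0692).

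The 2 lower members were DDX58, the RNA sensor RIG-I, and USP18, which removes ISG15 from proteins and dampens receptor signalling. DDX58 was at 4.55, 3.35, 3.30 and 2.96 RPKM in shPRMT1 #5. It was at 8.36, 6.62, 11.1 and 7.58 with shPRMT1 #1, and at 8.09, 6.95, 5.34 and 4.92 with shPRMT1 #3. No library overlapped, and the log2 difference was -0.86 (SE 0.12, limma, adjusted p = 0.000385). USP18 averaged 3.44 and 5.02 RPKM (-0.43, adjusted p = 0.00193). The sensors DDX58 and IFIH1 thus differed in opposite directions.

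Interferon-response patterns were about as frequent in the promoters of members higher beyond both as in those of members not called beyond both. The latter can include members called against the mean only. The pattern GAAANNGAAA, searched on both strands in RefSeq promoters (GRCh38.p14, 250 bases before to 50 after the gene start), was present in 1255 of 35116 promoters (3.57%). It was present in 17 of 23 matched members of the list (73.9%) and in 10 of 13 called higher beyond both (76.9%). Among those not called beyond both it was present in 7 of 9 (77.8%), and in 0 of 1 called lower, DDX58. The pattern fixes the gap between its GAAA units, so units with a shorter gap were not counted. The promoters of DDX58, OAS1 and XAF1, scored as without the pattern, hold GAAACGAAA, with 1 base between the units. How many other promoters hold it was not counted. These scores therefore do not show that DDX58 lacks an interferon-response element. The promoter of IFI27 is shown as an example, with both matches in capitals, 1 on each strand.
IFI27 (chr14:94110486-94110785, plus strand): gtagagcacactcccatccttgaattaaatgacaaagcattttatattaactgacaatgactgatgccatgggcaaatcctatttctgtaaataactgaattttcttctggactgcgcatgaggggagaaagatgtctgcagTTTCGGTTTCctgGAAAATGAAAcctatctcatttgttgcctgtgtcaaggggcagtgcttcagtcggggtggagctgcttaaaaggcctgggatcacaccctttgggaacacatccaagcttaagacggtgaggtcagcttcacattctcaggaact

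Genes of antigen presentation were higher by smaller amounts. Of 17 tested HLA and antigen-processing genes, 12 were higher and 0 lower, 9 of them beyond both, with a median of 0.25. The shares over all genes were 18.8% higher and 14.6% lower, and 7.10% higher beyond both. The count of the list called higher ranged from 6 to 12 across the alternatives. PSMB8, an immunoproteasome subunit, was at 42.4 to 48.6 RPKM in shPRMT1 #5 and at 33.4 to 40.2 in the others (0.30, SE 0.0273, adjusted p = 2.33e-05). NLRC5, the activator of class I genes, averaged 10.1 and 6.53 RPKM (0.55), and HLA-B 38.8 and 32.0 (0.27). The HLA genes are alike in sequence, and no source used here says how reads shared between them were counted.

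Replication-dependent histone genes, which package newly made DNA, had the highest median of the lists drawn, at 0.54. Of 24 tested, 16 were higher and 0 lower, 11 of them beyond both, and 13 to 16 were higher across the alternatives. Among all genes 18.8% were higher and 14.6% lower, and 7.10% were higher beyond both. The linker histone HIST1H1C was at 57.5 to 62.1 RPKM in the 4 shPRMT1 #5 libraries. It was at 25.4 to 32.0 with shPRMT1 #1 and 32.0 to 43.8 with shPRMT1 #3, with no overlap (0.84, adjusted p = 7.18e-06). HIST1H2BK averaged 58.1 and 37.9 RPKM (0.64) and HIST1H2BJ 17.2 and 8.97 (0.90). HIST1H2AG was at 9.79 and 9.70 RPKM untreated and 23.6 and 19.8 under cisplatin in shPRMT1 #5, against 1.94 to 5.04 and 9.48 to 13.7 in the others. Histone genes are near-identical copies, so the values of single members are uncertain. How far these reads stand for all histone RNA of the cells was not tested. Among overlapping runs of 50 neighbouring tested genes along each chromosome, leaving out the lowest genes, the histone cluster from HIST1H3A to ZSCAN16-AS1 on chromosome 6 (GRCh37) had a median of 0.49, with 26 genes higher and 1 lower beyond both. The run from ABT1 to HLA-G, which overlaps it and counts part of the same genes, had a median of 0.25 with 15 higher and 2 lower.

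Of 46 S phase genes 17 were lower and 1 higher (median -0.10), where 14.6% of all genes were lower and 18.8% higher. Beyond both, 9 were lower and 0 higher, where 8.00% of all genes were lower and 7.10% higher. POLA1, the catalytic subunit of DNA polymerase α, averaged 9.98 and 15.6 RPKM in shPRMT1 #5 and the others (-0.57), ORC1 of the origin complex 13.4 and 20.2 (-0.58), and CDC45 of the replicative helicase 16.9 and 25.2 (-0.58). Of 45 DNA damage response genes 17 were lower and 5 higher (median -0.09), and 9 lower and 3 higher beyond both. FANCM, a translocase of the Fanconi anaemia pathway, averaged 4.39 and 8.12 RPKM (-0.76). The number of lower genes ranged from 8 to 20 for S phase and from 10 to 19 for DNA damage response across the alternatives, and most members of both lists were not called.

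Members of the TGF-β, Notch and Wnt lists differed in both directions or downward. TGFBR2, the ligand-binding TGF-β receptor, was at 31.7 and 30.2 RPKM untreated and 26.6 and 24.8 under cisplatin in shPRMT1 #5. It was at 65.5, 61.9, 54.1 and 50.03 with shPRMT1 #1, and at 53.5, 52.2, 47.5 and 47.1 with shPRMT1 #3. The groups did not overlap (-0.90, SE 0.0321, limma, adjusted p = 2.25e-07). The whole TGF-β and BMP list had 4 genes higher and 6 lower of 30, where 18.8% of all genes were higher and 14.6% lower. Its receptor ACVR1 averaged 9.86 and 18.6 RPKM (-0.86). Of 20 Notch pathway genes 7 were lower and 0 higher (median -0.18, 3 to 7 lower across the alternatives). NOTCH2 was at 9.64 to 16.7 RPKM in shPRMT1 #5 and at 16.5 to 25.3 in the others (-0.70). Of 29 Wnt genes 8 were lower and 3 higher (median -0.07). Its members included the receptor FZD4 (-0.67), and APC, a scaffold of β-catenin breakdown (-0.67).

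Of the 7 arginine methyltransferases tested other than PRMT1, 5 were higher and 0 lower, 2 of them beyond both (median 0.21). Among all genes 18.8% were higher and 14.6% lower, and 7.10% were higher beyond both. PRMT6 averaged 40.5 and 27.5 RPKM (0.58), and CARM1 averaged 33.2 and 24.5 (0.44) and was not called beyond both. In shScramble cells their means were 32.7 and 29.1 RPKM. G3BP1, a stress granule protein on the list of PRMT1 partners and substrates, was at 10.5 to 12.7 RPKM in shPRMT1 #5 and at 18.4 to 36.2 in the others (log2 difference -1.07, adjusted p = 1.47e-05). That list had 4 members higher and 3 lower of 20, near the shares over all genes, 18.8% and 14.6%. Of 13 small RNA pathway genes 3 were higher and 3 lower, beside the same shares over all genes. DICER1, the enzyme that cuts hairpins, was at 14.5 to 18.4 RPKM against 18.2 to 29.4, with an overlap under cisplatin (-0.56). In shScramble cells DICER1 was at 13.3 to 15.2 RPKM.

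Secreted factors of senescent cells and oxidative stress genes were raised in part. Of 33 secreted factors 15 were higher and 1 lower (median 0.16), with 7 to 16 higher across the alternatives. Beyond both, 6 were higher and 0 lower. Over all genes the shares were 18.8% higher and 14.6% lower, and 7.10% and 8.00% beyond both. The same shares stand beside the counts of the other lists in this paragraph. The cytokine IL1A was at 14.9, 11.2, 28.4 and 23.4 RPKM in shPRMT1 #5, at 10.7, 7.98, 18.9 and 13.1 with shPRMT1 #1, and at 3.92, 4.29, 12.8 and 11.2 with shPRMT1 #3 (0.90, adjusted p = 0.000191). Each shPRMT1 #5 library lay above those of the same treatment. IL1A lost its call with all 16 libraries in the fit (adjusted p = 0.115). IL8 was called at a difference of 0.20 (adjusted p = 0.0268) but not without the replicate block (0.17), with no filter (0.08), with size factors (0.0774) or with all 16 libraries (0.664), all adjusted p. Nor was it called without either untreated replicate of shPRMT1 #5, its cisplatin replicate 2, or untreated replicate 1 of shPRMT1 #3, at adjusted p of 0.0536 to 0.102. IL6 had a difference of 0.20 (adjusted p = 0.108) and IL1B of 0.08 (adjusted p = 0.636), and neither was called. Of 26 NRF2 and oxidative stress genes 15 were higher and 2 lower (median 0.19), and 6 and 0 beyond both, with 8 to 16 higher across the alternatives. Of 47 cytosolic ribosomal protein genes 15 were higher and 0 lower (median 0.11), ranging from 5 to 19 higher across the alternatives. Ribosomal protein genes are among the abundant ones where the share called higher was raised, at 34.1% of all genes over 0.5 reads per base. The count of this list was not separated from that share. Of 24 cholesterol synthesis genes 7 were lower and 2 higher (median -0.04), and of 5 metallothioneins, near-identical metal-binding proteins, 3 were lower and 0 higher (median -0.25).

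**Figure D4:**
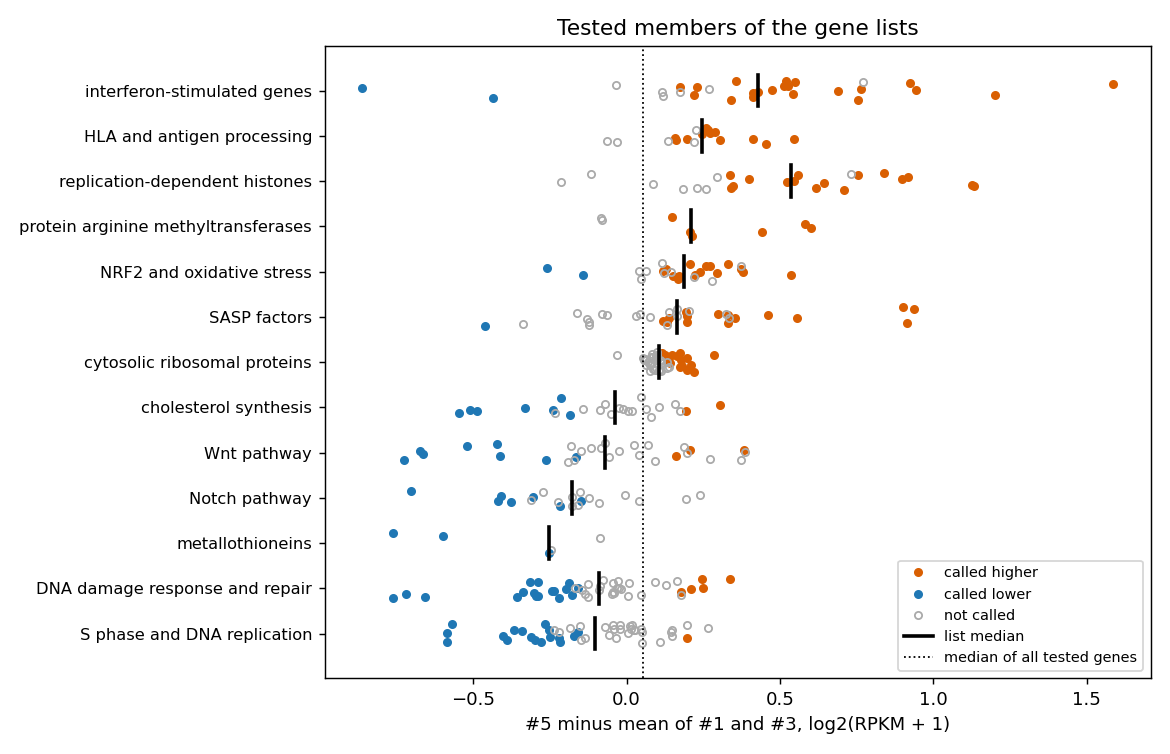
Log2 difference of shPRMT1 #5 from the mean of shPRMT1 #1 and #3 (horizontal) for the tested members of 13 gene lists; each point is 1 gene and the bars are medians, with the median of all tested genes at 0.05. PRMT1 is among the methyltransferases drawn. Interferon-stimulated genes and histones have the highest medians, 0.43 and 0.54, and the Notch and S phase lists lie below 0 at -0.18 and -0.10.

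The differences were called more often without the drug. Untreated, 2906 genes were higher (16.4%) and 2578 lower (14.5%); under cisplatin, 1873 were higher (10.5%) and 1650 lower (9.28%). Of 29 interferon-stimulated genes, 18 were higher and 2 lower untreated and 12 higher and 2 lower under cisplatin, and of 24 histone genes 16 and 13 were higher. Without the replicate block the counts were 1204 higher and 1233 lower untreated and 380 and 604 under cisplatin. Untreated, leaving out replicate 1 of shPRMT1 #5 gave 1157 higher and 1594 lower, and leaving out replicate 2 gave 1932 and 1666. Under cisplatin, leaving out replicate 1 of shPRMT1 #5 gave 424 higher and 685 lower, leaving out replicate 2 gave 304 and 500, and leaving out replicate 1 of shPRMT1 #3 gave 1161 higher.

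A change of the difference itself with cisplatin was called for 8 genes (0.0450%), 6 upward and 2 downward, while 3235 genes had an unadjusted p under 0.05. The 8 were called only with the replicate block: without it limma called 0, and voom on the recovered reads, with the block, called 150. METAP2, which removes the initiator methionine from new proteins, was at 13.7 and 10.8 RPKM untreated and 31.4 and 27.0 under cisplatin in shPRMT1 #5. It was at 37.8 and 33.7, then 47.9 and 39.0 with shPRMT1 #1, and at 39.8 and 36.2, then 43.9 and 42.6 with shPRMT1 #3. Its difference narrowed from -1.52 to -0.56, a change of 0.97 (SE 0.0838, limma, adjusted p = 0.0163, and 0.254 without the block). The related METAP1 narrowed from -1.27 to -0.74. YWHAG, a 14-3-3 protein, was at 27.1, 27.7, 47.1 and 46.1 RPKM in shPRMT1 #5 and narrowed from -1.08 to -0.46. SLC25A30, a mitochondrial carrier, was at 5.61 and 4.88 untreated and at 15.9 and 12.7 RPKM under cisplatin, and narrowed from -1.66 to -0.68.

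Both remaining upward genes were near the floor under cisplatin. NEBL, an actin-binding protein, was at 2.10 and 1.78 RPKM untreated and 0.160 and 0.117 under cisplatin in shPRMT1 #5, and its difference went from -1.71 to -0.22. ROR1, a receptor of WNT5A, was at 3.08 and 3.09, then 0.131 and 0.0671 RPKM, and went from -1.34 to -0.24. A floor of 3 reads in a 2 kb gene model corresponds to 0.0935 to 0.122 RPKM, and with voom the change of ROR1 was 0.02. Downward, TNFAIP3, the feedback inhibitor of NF-kB signalling, was at 7.45 and 8.01 RPKM untreated and 25.6 and 29.3 under cisplatin in shPRMT1 #5. With shPRMT1 #1 it was at 4.60 and 4.84, then 33.4 and 39.7, and with shPRMT1 #3 at 3.77 and 4.44, then 27.6 and 28.8. It was thus highest in shPRMT1 #5 untreated and not under cisplatin, a change of -0.91 from 0.69 to -0.22. HCP5, a noncoding gene between HLA genes, went from 1.43 to 0.54. Of the 7 genes with a 3′ UTR in the annotation, METAP2, METAP1, NEBL and ROR1 held a GGAATGA site, and NEBL held 4. Among all tested genes with a 3′ UTR, 12.7% held a site. The 3′ UTRs of these genes have 1938, 1499, 5777 and 2646 bases in that order, against a median of 1360 over all. The run was chosen for its low mean in shPRMT1 #5, so this count adds no support.

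**Figure D5:**
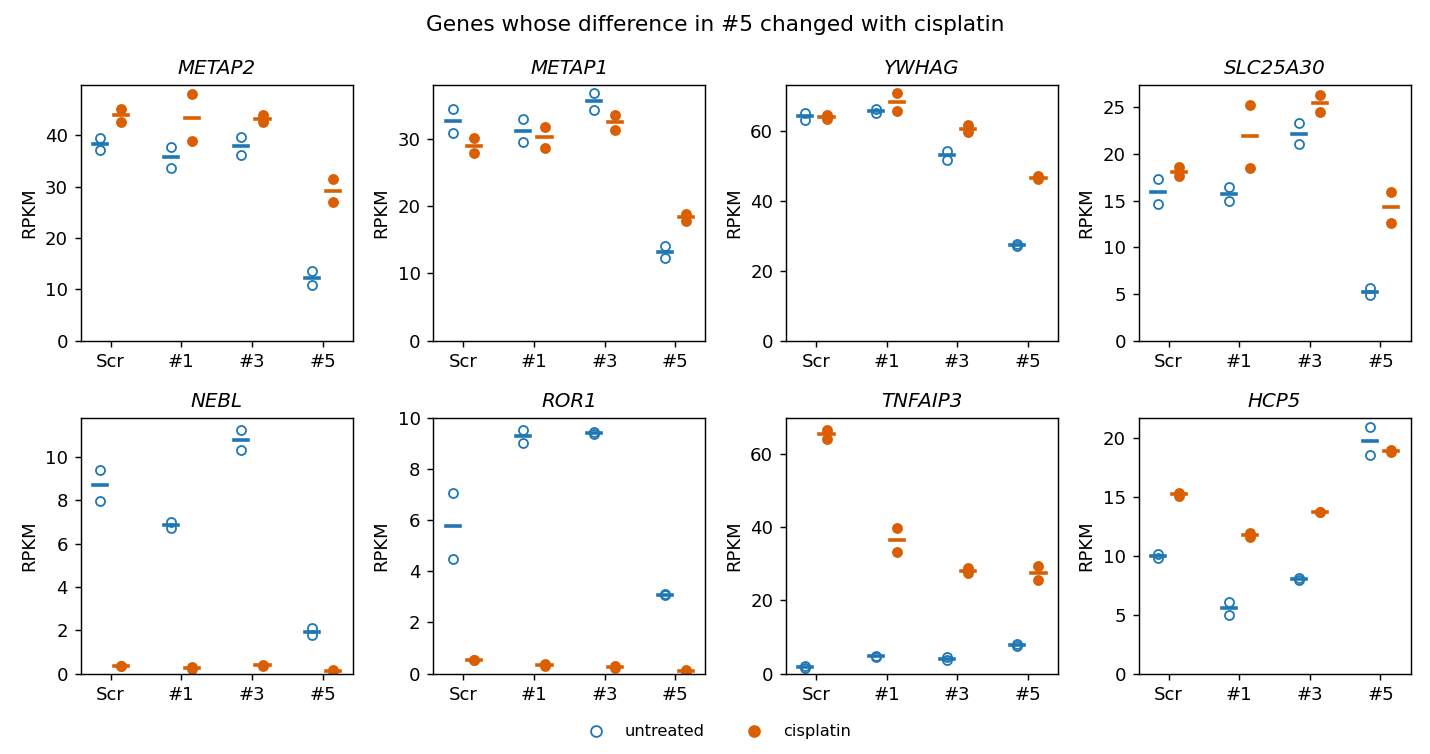
RPKM (vertical, linear) in each library for the 8 genes whose shPRMT1 #5 difference changed with cisplatin; each point is 1 library and each bar the mean of 2, by population (Scr is shScramble) and treatment. METAP2 in shPRMT1 #5 goes from 10.8 and 13.7 RPKM to 27.0 and 31.4 while the other knockdowns stay between 33.7 and 47.9.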

How the data were processed

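The authors deposited 1 table of linear RPKM values for 57820 genes in 16 libraries, per the file headers. HISAT2, DESeq2 and the build GRCh37 are named without a version in the submitters' processing notes; no source used here gives the counting or the duplicate handling. Per the labels' protocols, the library kit was TruSeq RNA v2, which does not mark strand, so antisense and overlapping genes cannot be told apart. RPKM steps gave whole reads for 40649 of 40649 genes (100%, within 0.01 reads); floors cover counting error only. limma 3.58.1 (trend, R 4.3.3) was fitted to log2(RPKM + 1) of the 12 knockdown libraries, over genes with at least 1 RPKM in 2 libraries. The model had hairpin, treatment and replicate number, or 6 group means and replicate number. Log2 differences on this scale understate the change of low genes. Benjamini-Hochberg adjusted p under 0.05 called a gene. Of these genes, 407 passed the filter only through shPRMT1 #5 and 1322 only through the others. Replicate numbers were read as pairs: replicate differences correlated at 0.30 to 0.71 in 15 of 15 pairs of groups, and no replicate pair agreed within sampling noise (chi-square per degree of freedom 5.16 to 34.8).

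Named genes were the 12 largest differences each way among protein-coding and lincRNA genes called beyond both, at 5 RPKM or more and without overlap, up to 6 each way for the change with cisplatin, and up to 4 called members of a list with the lowest adjusted p. PRMT1 and the cytokines IL1A, IL1B, IL6 and IL8 were always included; other list members were named after their values were seen. A few results under this rule are not reported here. The comparison, the lists and the alternatives were chosen with earlier results of these data known. The alternatives were another pseudocount (0.1), filters, size factors, voom on recovered reads, no block, all 16 libraries, pooled hairpins, single treatments, and leaving out each library. Figures used Python 3.11.15 and matplotlib 3.10.9. The procedure was tested on simulated data.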

Additional observations from a re-analysis of the deposited data

Results flagged for a closer look

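For 8 genes the difference of shPRMT1 #5 from the mean of shPRMT1 #1 and #3 changed between untreated and cisplatin-treated cells by limma's test of that change, at a Benjamini-Hochberg adjusted p of 0.0163 for NEBL, METAP2, TNFAIP3 and YWHAG and of 0.0386 for the other 4. The changes on the log2(RPKM + 1) scale were 1.50 for NEBL, 1.10 for ROR1, 0.97 for METAP2, 0.97 for SLC25A30, 0.62 for YWHAG, 0.53 for METAP1, -0.91 for TNFAIP3 and -0.90 for HCP5. Each had 2 libraries a group. All lost the call without the replicate block, at adjusted p of 0.0572 to 0.33, and 94 of 155 repeats under other settings missed the threshold.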

How the results depend on the processing

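Without the replicate block, against the mean 1853 genes were higher, beyond both hairpins 556 were higher and 887 lower, untreated 1204 and 1233, under cisplatin 380 and 604, and the change with cisplatin was called for 0 and 0. That change was called for 38 genes upward and 27 downward with no filter on low values, 10 upward with size factors, 79 and 71 with voom on recovered reads, and 96 and 56 with all 16 libraries. Pooling shPRMT1 #1 and #3 gave 1791 higher and 1726 lower, and fitting only the cisplatin libraries gave 146 and 327. Keeping only genes under 0.2 reads per base, chosen after seeing the data and testing fewer genes, gave 1712 and 1486 against the mean, 637 and 751 beyond both, 1601 and 1386 untreated, 720 and 904 under cisplatin, and 1 and 0 for the change. Leaving out 1 library at a time gave 2262 to 3614 higher and 2038 to 2693 lower against the mean, 725 to 1270 and 1112 to 1440 beyond both, 1157 to 3464 and 1594 to 2873 untreated, 304 to 2160 and 500 to 1720 under cisplatin, and 0 to 514 and 0 to 252 for the change, the highest without cisplatin replicate 1 of shPRMT1 #1. PRMT1 remained called at 0.51 to 0.70 in these. The cause of the other movements was not tested. Of 2908 repeats for 149 named results, 2764 kept direction and call, 142 lost the call, 1 gained it, and IL1B, not called in any, ranged from -0.03 (without untreated replicate 2 of shPRMT1 #5) to 0.13 with 1 library left out. The block changed 15 calls of named results, of which 7 were outside the change with cisplatin. With 2 replicates a group and 1 population a hairpin, depth limits genes near the floor, and compression limits the most abundant.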
